A study of Mus musculus with 8 samples.

Results

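The primitive streak and mesendoderm genes described here are 8 of the 26930 genes in the deposited count table: the transcription factor genes T, Eomes, Mixl1, Gsc, Evx1 and Sp5, the ligand gene Fgf8 and the Wnt feedback gene Axin2. They were chosen by name, each matching 1 row of the table, when earlier results of these same libraries were already known, so their counts, levels and fold changes are a description and carry no test of their own. The study sequenced RNA from mouse cells on the way from embryonic fibroblasts (MEFs) to induced pluripotent stem cells, sampled at day 8 of reprogramming. Wild-type cells (WT), whose libraries are named H3 in the sample descriptions, were compared with cells of the H3K36M genotype (K36M). The name stands for a histone H3 with methionine in place of a lysine that is normally methylated. The construct, and whether all or part of the H3 in these cells carried the change, is not in the labels. Reprogramming in all groups was carried out in a medium called AGi, and each genotype received either Repsox at 250 nM (a small molecule that blocks the kinase of the TGF-beta receptor ALK5) or recombinant TGFb-1 at 2.5 ng/ml. This gave 4 groups of 2 libraries each, WT with Repsox, WT with TGFb, K36M with Repsox and K36M with TGFb. No group without either agent enters the comparisons. Whether both libraries of a group stem from independent cultures is not in the labels, so the spread between them may be technical. The errors and p-values of the fits below rest on such spread, drawn largely from all tested genes together. In the edgeR fit the shared spread had a weight of 17.5 degrees of freedom, against 4 for a gene's own libraries. The exact intervals given with ratios of reads hold counting error only.

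The primitive streak is the site in the gastrulating embryo where pluripotent epiblast cells move inward and become mesoderm and definitive endoderm. Nodal and Wnt signals induce it. Nodal acts through SMAD2 and SMAD3 to switch on Eomes, Mixl1 and Gsc, while Wnt signals act through beta-catenin and TCF/LEF factors to switch on T, Sp5 and Axin2, and Fgf8 is needed for cells to leave the streak. T, also called Brachyury, and Eomes belong to the T-box family of DNA-binding proteins, and the same genes appear when pluripotent cells in culture start to differentiate towards mesendoderm.

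Library totals ranged from 10928302 to 15594217 reads counted in genes, and 15789 genes had enough reads to be tested. Levels are given as counts per 1000000 reads (CPM), scaled by the composition of each library. The summed level of 17 pluripotency genes was between 1500 and 1770 CPM in WT with Repsox, 36.8 and 37.4 CPM in WT with TGFb, between 2290 and 2300 CPM in K36M with Repsox and between 1110 and 1130 CPM in K36M with TGFb. The summed level of 15 fibroblast genes was 5800 to 6430 CPM in WT with Repsox, 18800 to 20400 CPM in WT with TGFb and 1990 to 3080 CPM in the K36M libraries. With TGFb in WT, 8 of these 15 genes were higher and 6 lower (29.0% and 33.4% of all tested genes), so the sum does not stand for each of them. In a bulk sample, fewer cells expressing a gene and less RNA per cell cannot be told apart, which holds for every level below.

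T, a founder gene of the mesoderm programme that acts as a transcriptional activator, was read in all 8 libraries. WT cells with Repsox had 24 and 12 reads, or 1.62 and 0.907 CPM. WT cells with TGFb had 2 and 3 reads, or 0.172 and 0.215 CPM. K36M cells with Repsox had 1 read in each library, or 0.0658 and 0.0804 CPM, and K36M cells with TGFb had 75 and 55 reads, or 5.86 and 4.81 CPM. The K36M libraries with TGFb were thus the highest of all, the WT libraries with Repsox came next, and the 4 libraries of the other groups held at most 3 reads each. In the order of the group levels, K36M with TGFb exceeded WT with Repsox by a ratio of 4.18 (exact 95% interval 2.87 to 6.23, counting error only). The lowest pair of groups could not be ordered, since WT with TGFb over K36M with Repsox gave a ratio of 2.7 (0.443 to 28.4) from 5 against 2 reads.

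Sp5, a zinc finger transcription factor that is switched on directly by Wnt signals in the streak, had the same 2 highest groups. Its levels were 1.75 and 1.44 CPM in WT with Repsox, 0.258 and 0.0718 CPM in WT with TGFb, 0.395 and 0.724 CPM in K36M with Repsox, and 6.72 and 6.47 CPM in K36M with TGFb. No library of any group overlapped with those of another group. These levels rest on 45, 4, 15 and 160 reads per group in that order, and K36M with TGFb exceeded WT with Repsox by a ratio of 4.12 (exact 95% interval 2.94 to 5.87).

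**Figure D1:**
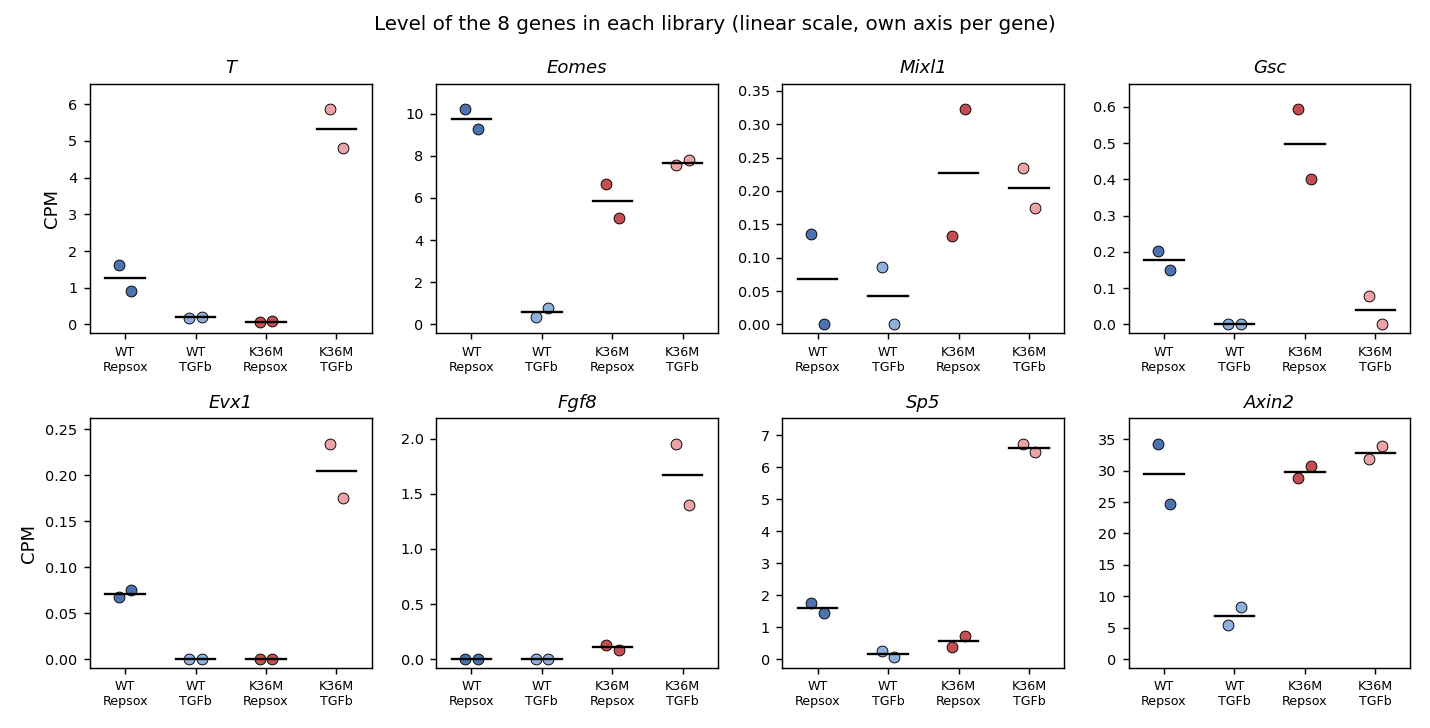
Levels of the 8 genes in CPM (linear axis, its own range per gene) in each of the 8 libraries, by group, with a point per library and a bar at the mean of the group. T and Sp5 are highest in both K36M libraries with TGFb, while Eomes and Axin2 are low in WT with TGFb and stand near each other in the other 3 groups.

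The response of T and Sp5 to the agents had opposite signs in the 2 genotypes. In WT cells, the level of T was 6.26-fold lower with TGFb than with Repsox (log2 difference -2.65 ± 0.66, SE of the fit), and in K36M cells it was higher by a ratio of 74.1 (exact 95% interval 20.1 to 618), the fitted log2 difference being 6.03 ± 0.64. Sp5 was 9.66-fold lower with TGFb in WT (-3.27 ± 0.64) and 11.9-fold higher with TGFb in K36M (3.57 ± 0.42). Between the genotypes, under Repsox T was lower in K36M by a ratio of 17.7 (4.56 to 152; fitted log2 difference -3.97 ± 0.78) and 26.1-fold higher in K36M under TGFb (4.71 ± 0.55). Sp5 was 2.9-fold lower in K36M under Repsox (-1.53 ± 0.49) and 39.6-fold higher under TGFb (5.31 ± 0.54). The Sp5 difference under Repsox missed the threshold of an adjusted p of 0.05 without replicate 1 of WT with Repsox (-1.38) or without replicate 1 of K36M with Repsox (-1.13). The Sp5 values set against WT with TGFb rest on the 4 reads of that group. Without replicate 1 of that group the K36M to WT difference under TGFb was 6.34 and the response in WT was -4.30, and without replicate 2 they were 4.62 and -2.59. The difference between the responses of the genotypes, K36M minus WT, was 8.68 ± 0.94 for T and 6.84 ± 0.75 for Sp5 on the log2 scale, the latter 7.87 without replicate 1 and 6.16 without replicate 2 of WT with TGFb. These fitted values depend on the prior count added to low counts, and with a prior count of 2 the difference between responses was 6.65 for T and 5.77 for Sp5.

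In the mm9 assembly T lies on chromosome 17 from 8627288 to 8635361, on the plus strand, and Sp5 on chromosome 2 from 70312980 to 70315786, also on the plus strand. The promoter windows of this pair are shown because both genes are textbook TCF/LEF targets and share the 2 highest groups, K36M with TGFb and then WT with Repsox. The sequences are RefSeq's, on GRCm38.p6, from 250 bases before the transcript start to 50 bases after it, at chr17:8434173-8434472 for T and chr2:70474673-70474972 for Sp5, both on the plus strand and printed 5′ to 3′. Capitals mark matches, on either strand, to the TCF/LEF core, searched as CTTTGAT or with AA, TT or TA in place of the closing AT.
T: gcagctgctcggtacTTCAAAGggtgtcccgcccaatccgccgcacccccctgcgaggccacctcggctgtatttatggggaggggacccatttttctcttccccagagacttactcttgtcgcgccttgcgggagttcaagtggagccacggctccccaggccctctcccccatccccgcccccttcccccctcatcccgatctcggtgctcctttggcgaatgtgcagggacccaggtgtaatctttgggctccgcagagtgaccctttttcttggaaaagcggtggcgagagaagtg
Sp5: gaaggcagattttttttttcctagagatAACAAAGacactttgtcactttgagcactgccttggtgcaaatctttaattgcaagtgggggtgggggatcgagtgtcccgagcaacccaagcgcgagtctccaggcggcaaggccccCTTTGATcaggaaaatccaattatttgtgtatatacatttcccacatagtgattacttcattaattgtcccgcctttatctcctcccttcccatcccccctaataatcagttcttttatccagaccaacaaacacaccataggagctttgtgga
The T window held 1 match, CTTTGAA on the minus strand at position -235 from the start. The Sp5 window held 2, CTTTGTT on the minus strand at -222 and CTTTGAT on the plus strand at -104. Of 32851 windows of the same length in the RefSeq table, 16.9% hold at least 1 match, so a match is a description of the letters and not a bound site.

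Eomes and Axin2 formed the other pattern, in which 1 group was low and the other 3 stood close together. Eomes, the T-box factor of mesendoderm that is also needed in trophoblast, had 10.2 and 9.29 CPM in WT with Repsox, 0.344 and 0.79 CPM in WT with TGFb, 6.65 and 5.07 CPM in K36M with Repsox, and 7.58 and 7.78 CPM in K36M with TGFb. Axin2, the scaffold of the beta-catenin destruction complex that restrains the pathway that induces it, had 34.2 and 24.7 CPM, 5.51 and 8.26 CPM, 28.9 and 30.7 CPM, and 31.8 and 33.9 CPM in the same order. For both genes every library of WT with TGFb was below all 6 others. Axin2 was the most deeply read of the 8 genes, with 2630 reads over all libraries, against 640 for Eomes. An antisense gene that overlaps Axin2, Gm11670, had 1 and 2 reads in K36M with Repsox and none elsewhere.

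With TGFb in place of Repsox, Eomes was 16.5-fold lower in WT cells (log2 difference -4.04 ± 0.34) and Axin2 4.24-fold lower (-2.08 ± 0.18). In K36M cells neither passed the threshold of an adjusted p of 0.05 in edgeR's quasi-likelihood fit, Eomes differing by 0.38 ± 0.24 and Axin2 by 0.14 ± 0.15. Under TGFb, K36M exceeded WT 12.9-fold for Eomes (3.69 ± 0.35) and 4.71-fold for Axin2 (2.24 ± 0.18). Under Repsox, Eomes was 1.66-fold lower in K36M (-0.73 ± 0.23), a difference that missed the threshold without replicate 2 of K36M with Repsox (-0.55) and under DESeq2. Axin2 under Repsox differed by 0.01 ± 0.15, and the libraries of the genotypes overlapped. Leaving out replicate 2 of WT with TGFb, which held 11 of the 15 Eomes reads of that group, moved the Eomes difference under TGFb to 4.44 and the response in WT to -4.79. The responses of the genotypes differed by 4.42 ± 0.42 for Eomes, or 5.17 without that library, and by 2.22 ± 0.23 for Axin2.

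Eomes lies on chromosome 9 from 118387330 to 118395250 and Axin2 on chromosome 11 from 108781663 to 108812097 in mm9, both on the plus strand. Their promoter windows are shown beside those of T and Sp5 because Axin2 is the classical readout of TCF/LEF activity and Eomes shares with it the low level in WT with TGFb. They lie at chr9:118477939-118478238 for Eomes and chr11:108920099-108920398 for Axin2 on GRCm38.p6, again on the plus strand.
Eomes: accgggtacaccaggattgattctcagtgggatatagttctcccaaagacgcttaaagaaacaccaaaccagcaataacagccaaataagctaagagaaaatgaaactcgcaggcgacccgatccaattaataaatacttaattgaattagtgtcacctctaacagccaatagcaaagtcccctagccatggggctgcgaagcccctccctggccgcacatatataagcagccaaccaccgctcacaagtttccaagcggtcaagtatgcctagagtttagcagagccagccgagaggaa
Axin2: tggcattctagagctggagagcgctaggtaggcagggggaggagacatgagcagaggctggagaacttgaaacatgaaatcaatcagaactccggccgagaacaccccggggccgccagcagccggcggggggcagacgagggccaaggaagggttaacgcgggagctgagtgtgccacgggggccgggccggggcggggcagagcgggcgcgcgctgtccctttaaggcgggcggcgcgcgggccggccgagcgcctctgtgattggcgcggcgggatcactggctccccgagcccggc
Neither window held one of the 4 TCF/LEF words, and both are therefore wholly in lower case. The SMAD box, searched as CAGAC on both strands, had 1 match in the Axin2 window, 1 in that of Sp5 and 2 in that of Evx1, and 49.6% of all windows hold it. The T-box word GGTGTGA, held by 3.98% of windows, and the FOXH1 words AATCCACA and AATACACA, held by 1.82%, were found on neither strand of any of the 6 windows matched. The GC content was 45.0% for Sp5, 47.3% for Eomes, 48.7% for Evx1, 60.3% for Gsc, 61.7% for T and 70.0% for Axin2. Windows for Mixl1 and Fgf8 were not used here. The absence of a word says only that these letters are not in these 300 bases.

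Fgf8, the ligand made by streak cells, was read almost only in K36M cells with TGFb. There it had 25 and 16 reads, or 1.95 and 1.4 CPM. K36M cells with Repsox had 2 and 1 reads, or 0.132 and 0.0804 CPM, and none of the 4 WT libraries had a read. A count of 0 over a WT group allows up to 0.107 CPM with Repsox and 0.117 CPM with TGFb. Set to that limit, WT with TGFb was 14.4-fold below K36M with TGFb. This value leaves out the counting error of the K36M reads. K36M with TGFb exceeded K36M with Repsox by a ratio of 15.6 (exact 95% interval 4.97 to 78.6), the fitted log2 difference being 3.84 ± 0.81. No fold is given between the WT groups or between the genotypes under Repsox, where both sides held at most 3 reads. Fgf8, on chromosome 19 from 45811288 to 45817405 on the minus strand, passed the filter on low counts only through the group in which it is high.

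Gsc, Mixl1 and Evx1 did not pass that filter and were not fitted, so their reads are given with ratios from counting alone. Gsc, the homeobox gene of the anterior streak and organizer, was read with Repsox in both genotypes, with 3 and 2 reads in WT and 9 and 5 in K36M. With TGFb it had no read in WT and 1 and 0 reads in K36M. With 0 reads set to 3 over the group, the level was 1.52-fold lower with TGFb in WT. This value leaves out the counting error of the few Repsox reads, so no difference in WT is read from it. In K36M the level was lower by a ratio of 12.3 (exact 95% interval 1.87 to 520), so in K36M cells Gsc went the opposite way from T, Sp5 and Fgf8. Under Repsox the ratio of K36M to WT was 2.85 (0.969 to 10.1), an interval that includes 1.

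Evx1, a homeobox gene of the posterior streak, had 1 read in each WT library with Repsox, none in WT with TGFb or K36M with Repsox, and 3 and 2 reads in K36M with TGFb. With 0 reads set to 3 over the group, K36M with TGFb was 1.76-fold higher than WT with TGFb. Against K36M with Repsox it was 1.9-fold higher. These values leave out the counting error of its few reads, so no difference is read from them. An antisense RNA gene overlaps Evx1, 5730457N03Rik, and its only reads, 2 and 4, were in the same K36M libraries with TGFb. Whether the counting used the strand is not given in the sources used here, so reads of the overlapping pair cannot be told apart. Mixl1, the paired-like homeobox gene of the streak, had 2 and 0 reads in WT with Repsox, 1 and 0 in WT with TGFb, 2 and 4 in K36M with Repsox, and 3 and 2 in K36M with TGFb. Its ratios of K36M to WT were 3.05 (exact 95% interval 0.545 to 30.9) under Repsox and 5.27 (0.59 to 249) under TGFb, so no difference in Mixl1 was detectable at this depth. In mm9, Gsc lies on chromosome 12 from 105709419 to 105711537 and Mixl1 on chromosome 1 from 182623174 to 182627165, both on the minus strand, and Evx1 on chromosome 6 from 52263492 to 52268372 on the plus strand.

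Of the 8 genes, 5 could be tested, and their calls are set here beside the share of all tested genes called the same way. Fgf8, 1 of the 5, passed the filter on low counts only through K36M with TGFb. Its calls as higher in that group therefore add nothing, and without reads in WT it could not be called there. The comparisons share groups of libraries, so their counts are not independent of one another. K36M against WT under TGFb had all 5 tested genes higher, where 36.4% of all tested genes were called higher and 33.9% lower. K36M against WT under Repsox had 0 higher and 3 lower, namely T, Eomes and Sp5, where 28.8% of all tested genes were higher and 26.9% lower. TGFb against Repsox in WT had 0 higher and 4 lower, with 29.0% of all genes higher and 33.4% lower. In K36M cells the same agents gave 3 higher, namely T, Fgf8 and Sp5, and 0 lower, with 24.7% of all genes higher and 23.6% lower. For the difference between the genotypes' responses, 4 genes were called positive and 0 negative, with 28.5% of all genes positive and 22.6% negative. Nothing is read from these counts, since the same libraries were known when the genes were named.

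**Figure D2:**
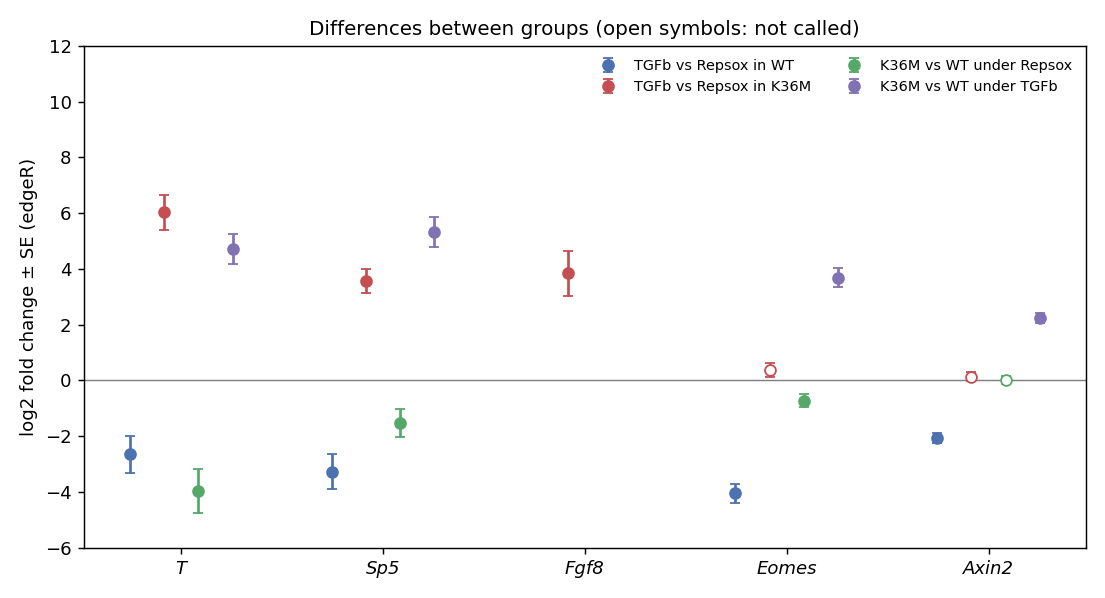
Log2 fold changes with SE bars from the fit for the tested genes in each pairwise comparison of groups, leaving out a comparison where a group had no read. Under TGFb every plotted gene lies above 0 for K36M against WT, while T and Sp5 lie below 0 in WT and above 0 in K36M for TGFb against Repsox.

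Summed over the 8 genes, the level was 48.3 and 36.6 CPM in WT with Repsox, 6.37 and 9.33 CPM in WT with TGFb, 36.9 and 37.4 CPM in K36M with Repsox, and 54.5 and 54.7 CPM in K36M with TGFb. Axin2 makes up most of each sum. Per kilobase of exon (RPKM), the order of the genes changed between groups. In K36M with TGFb the mean level was 5.97 RPKM for Axin2, 3.14 for Sp5, 2.31 for T, 1.85 for Eomes and 1.24 for Fgf8. In WT with Repsox Axin2 stood at 5.35 RPKM and Eomes at 2.35, above Sp5 at 0.759 and T at 0.546. In K36M with Repsox Eomes stood at 1.41 RPKM, Gsc at 0.393, Sp5 at 0.266 and T at 0.0316. Eomes was therefore the most abundant of the transcription factor genes with Repsox in both genotypes, and Sp5 in K36M with TGFb. No value for Mixl1, Gsc or Evx1 exceeded 0.393 RPKM in the mean of any group.

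Across the 8 libraries the log2 levels of Eomes and Axin2 had a Pearson correlation of 0.97, those of T and Sp5 0.91, and those of Fgf8 and Sp5 0.8. Eomes and Fgf8, at 0.39, were least alike, followed by T and Axin2 and by Fgf8 and Axin2, both at 0.47. These values describe 8 libraries that share 4 groups and give no test. Fgf8 had at most 2 reads in any library outside K36M with TGFb. Its correlations, here and below, therefore mainly reflect whether a gene is raised in that group. Among 10868 genes of sufficient level, the closest in pattern to T were P2rx7 (r = 0.994), Rps2 (0.984) and Dnajc9 (0.984). For Sp5 they were Wipf3 (0.991), Ccrl1 (0.989) and Ptprt (0.985), and for Fgf8 Baz1a (0.996), Hapln3 (0.99) and Dpysl5 (0.987). For Eomes they were Slc39a8 (0.996), Poc1b (0.994) and Hirip3 (0.991), and for Axin2 Rad9 (0.995), Pcif1 (0.994) and Pcgf2 (0.994). The range behind a correlation differs widely, since the group means of Rps2 ran only from 1060 to 1540 CPM.

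Other genes of the streak, early mesoderm, node and definitive endoderm were read alongside. Of 40 such genes on a list, 29 could be tested, and Noto and Evx2, a node gene and a relative of Evx1, had no read in any library. Under TGFb, 19 of the 29 were higher and 5 lower in K36M than in WT, with a median log2 difference of 2.6 against 0.05 over all tested genes. Under Repsox, 8 were higher and 10 lower (median -0.04 against 0.04). TGFb against Repsox gave 1 higher and 14 lower in WT (median -1.97, or -1.33 with genes without reads set at their bound, against -0.07) and 13 higher and 6 lower in K36M (0.33 against 0.01). The 6 lower in K36M, named after their values were seen, were Sox17, Fgf4, Otx2, Pdgfra, Gata4 and Gata6. Mesp1, Foxa2, Cer1 and Shh, also named afterwards, had between 1 and 5 reads over all libraries and were not tested. The responses of the genotypes differed for 17, all in the positive direction (median 3.14 against 0.09). The shares of all tested genes called, given above for each comparison, also stand beside these counts and those of the lists below. Some genes are on more than 1 list, so the lists are not independent. Some listed genes, such as Lefty2, Wnt3a and Fgf17, passed the filter on low counts only through K36M with TGFb. Their calls as higher there add nothing to the counts.

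**Figure D3:**
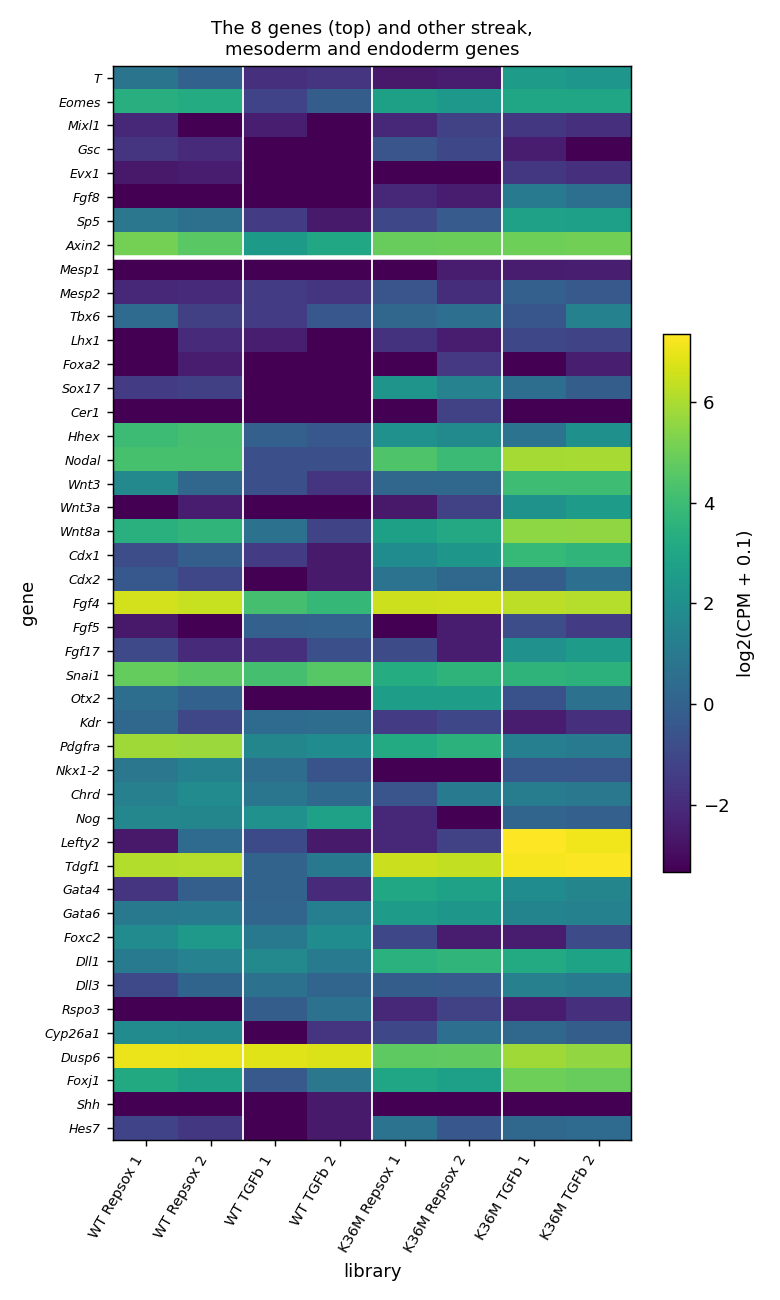
Log2 levels (CPM plus 0.1) of the 8 genes and of 37 other streak genes with reads, in the 8 libraries grouped by genotype and agent. In K36M with TGFb, T, Sp5, Fgf8, Nodal, Lefty2, Wnt3 and Wnt8a are at their highest of the 4 groups. Sox17, Fgf4, Otx2, Pdgfra, Gata4 and Gata6 are lower there than in K36M with Repsox.

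The signals that induce the streak were among those genes. Nodal, the ligand that switches on Eomes, Mixl1 and Gsc, had 18.8 and 18.6 CPM in WT with Repsox, 0.516 and 0.503 CPM in WT with TGFb, 20.9 and 15.4 CPM in K36M with Repsox, and 59.2 and 61.8 CPM in K36M with TGFb. It fell with TGFb in WT (log2 difference -5.17 ± 0.26, adjusted p = 9.08e-14 in edgeR) and rose with TGFb in K36M (1.73 ± 0.13, adjusted p = 2.57e-10). Wnt8a, a streak Wnt ligand, rose from 6.58 and 8.45 CPM to 46.7 and 47.4 CPM with TGFb in K36M (2.66 ± 0.18, adjusted p = 5.55e-11). Wnt3, the ligand without which no streak forms, rose from 1.05 and 1.13 to 16.1 and 16.0 CPM in the same comparison (3.87 ± 0.35, adjusted p = 4.55e-09). Wnt3a and Fgf17, singled out after their values were seen because they are relatives of Wnt3 and Fgf8, had 4.3 and 5.77 CPM and 4.06 and 5.85 CPM in K36M with TGFb and at most 0.322 and 0.503 CPM in any other library.

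Feedback genes of the Nodal pathway were read as well. Lefty2, a secreted Nodal inhibitor, had 162 and 138 CPM in K36M with TGFb and at most 1.21 CPM in every other library. Its rise with TGFb in K36M was 9.37 ± 0.31 on the log2 scale, or 10.05 without replicate 2 of K36M with Repsox. Like Fgf8, Lefty2 passed the filter on low counts only through K36M with TGFb. Its calls as higher in that group therefore add nothing, here and in the counts of the pathway. Lefty1, the neighbour of Lefty2 in function, rose by 5.95 ± 0.28 in K36M (edgeR adjusted p = 1.02e-13) and by 1.43 ± 0.29 in WT (adjusted p = 0.00021). Foxh1, the DNA-binding partner of SMAD2 at Nodal targets, stood at 26.4 ± 1.25, 0.653 ± 0.193, 27.9 ± 0.869 and 39.8 ± 5.61 CPM (SD, n = 2) in WT with Repsox, WT with TGFb, K36M with Repsox and K36M with TGFb. Over 19 tested genes of the Nodal and activin pathway, 10 were higher and 7 lower in K36M under TGFb (median 0.22 against 0.05 over all tested genes). With TGFb in K36M, 9 were higher and 5 lower (0.13 against 0.01). Of all tested genes, 36.4% were higher and 33.9% lower in the former comparison, and 24.7% and 23.6% in the latter. The response of Skil, a SMAD target that limits the pathway, also had the same sign in both genotypes, 3.01 ± 0.08 in WT and 1.65 ± 0.08 in K36M, unlike those of T and Sp5.

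Targets of Wnt signalling other than Sp5 and Axin2 were mostly lower in WT cells with TGFb, with 14 of 18 tested genes lower and 2 higher (median log2 difference -3.33 against -0.07 over all tested genes). In K36M cells 4 were higher and 6 lower (median -0.30 against 0.01), and under TGFb 11 were higher and 4 lower in K36M than in WT (2.61 against 0.05). Notum, a secreted enzyme that inactivates Wnt proteins, had 49.5 and 40.3 CPM in WT with Repsox, 0.689 and 0.503 CPM in WT with TGFb, 34.0 and 32.6 CPM in K36M with Repsox, and 11.5 and 13.7 CPM in K36M with TGFb. It fell with TGFb in both genotypes (-6.23 ± 0.23 in WT, adjusted p = 3.17e-16 in edgeR, and -1.41 ± 0.14 in K36M, adjusted p = 2.71e-08), where Sp5 was higher and Axin2 did not pass the threshold in K36M. Lef1, a TCF/LEF factor and itself a target, rose with TGFb in WT (2.85 ± 0.18, adjusted p = 3.35e-12), opposite to T, Sp5 and Axin2. Of 21 core components of the pathway, 8 were higher and 8 lower in K36M under TGFb, with a median of 0.02. They include genes of Wnt secretion, LRP co-receptors, the destruction complex, TCF factors and co-activators, but no Frizzled receptor. Of all tested genes, 36.4% were higher and 33.9% lower there. Single genes changed more than the median, such as Wls (-2.24 ± 0.09) and Dvl2 (1.40 ± 0.09).

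Genes of FGF signalling, the pathway of Fgf8, numbered 17 tested. In K36M against WT, 2 were higher and 11 lower under Repsox (median log2 difference -0.70 against 0.04 over all tested genes) and 6 higher and 7 lower under TGFb (-0.06 against 0.05). TGFb against Repsox gave 5 higher and 11 lower in WT (-1.0 against -0.07) and 8 higher and 4 lower in K36M (0.34 against 0.01). Fgf4, the FGF ligand of pluripotent cells, fell with TGFb in WT by 2.54 on the log2 scale (SE 0.11, edgeR adjusted p = 8.45e-15). Il17rd, an FGF feedback gene, rose with TGFb in K36M by 2.46 ± 0.11 (adjusted p = 5.2e-14). Of 11 tested T-box genes other than T and Eomes, 2 were higher and 4 lower in K36M under TGFb, or 3 called in all in a fit on the 4 libraries compared. Over all tested genes, 36.4% were higher and 33.9% lower in that comparison. Tbx3, a T-box gene of pluripotent cells, fell with TGFb in K36M (-2.29 ± 0.11, adjusted p = 8.4e-14), where T was higher. Of 7 tested relatives of Sp5 in the Sp family, 1 was higher and 4 lower with TGFb in K36M, against 24.7% and 23.6% of all tested genes.

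**Figure D4:**
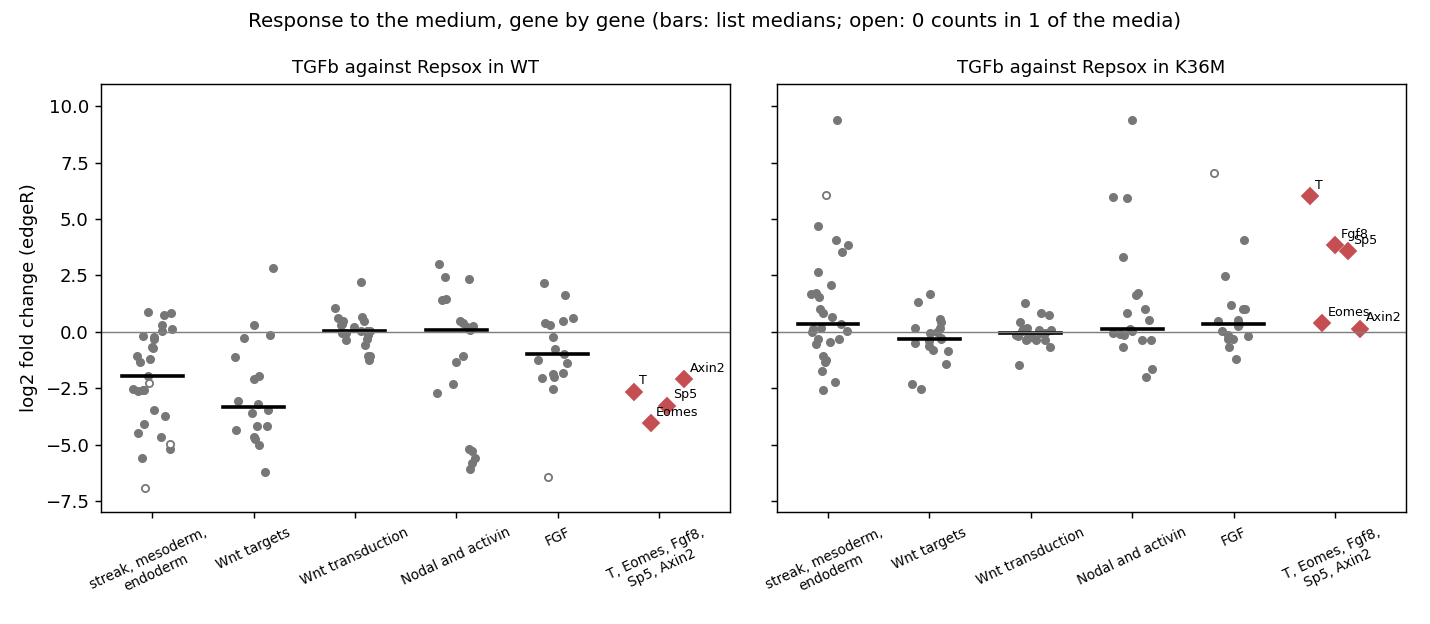
Log2 fold changes of the tested genes of each list, as points with a bar at the list median and open points where 1 agent had no read, beside T, Eomes, Sp5, Axin2 and, in K36M, Fgf8, for TGFb against Repsox in WT and in K36M. The median of the other streak genes is -1.97 in WT and 0.33 in K36M, and that of the Wnt targets is -3.33 and -0.30.

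Markers of other cell types moved between the same groups. All 17 pluripotency genes were lower with TGFb in WT (median log2 difference -6.20) and higher in K36M than in WT under TGFb (5.61). With TGFb in K36M, 1 was higher and 14 lower (-1.45), where T, Sp5 and Fgf8 were higher. The 1 higher was Tdgf1 (0.82 ± 0.09), which is also on the streak and Nodal lists. Of all tested genes, 29.0% were higher and 33.4% lower with TGFb in WT, and 24.7% and 23.6% in K36M. For K36M against WT under TGFb these shares were 36.4% and 33.9%. Of 12 tested trophoblast genes, a tissue that also uses Eomes, 11 were lower with TGFb in WT and 9 in K36M, with none higher in either, and Tpbpa had no read in any library. Their summed level was 454 to 474 CPM in WT with Repsox, 23.4 to 25.8 CPM in WT with TGFb, 1340 to 1400 CPM in K36M with Repsox and 393 to 400 CPM in K36M with TGFb. The 13 primitive endoderm genes summed to 818 to 929, 578 to 625, 918 to 989 and 634 to 641 CPM in the same order, and 11 neural genes to at most 35.7 CPM in any library. Of 15 fibroblast genes, 12 were lower and 1 higher in K36M under TGFb (median -3.42) and 11 were higher and 1 lower with TGFb in K36M (1.38). The part of these cell types in the levels of T, Eomes, Sp5, Fgf8 and Axin2 was not tested.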

How the data were processed

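RNA of 8 samples at day 8 was made into libraries after ribosomal RNA depletion. The deposited values are raw read counts per gene. Per the submitters' processing notes, the authors used STAR 2.5.0, HTSeq 0.11.2, edgeR and the mm9 genome; strand setting, annotation and filters are not given in the sources used here. The 8 genes and all lists were chosen with earlier results of these data known.

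Counts were tested in edgeR 4.0.16 (R 4.3.3; TMM factors 0.894 to 1.06, filterByExpr with a minimum count of 10, quasi-likelihood F test, Benjamini-Hochberg over 15789 genes, calls at an adjusted p of 0.05), with 4 group means fitted to all 8 libraries. Fold changes are glm estimates with a prior count of 0.125. The SE given with them is the absolute log2 value over the square root of the F value. It therefore changes with the prior count. With 1 to 3 reads in a group, the ratio of summed reads and its exact 95% interval are given, and 0 reads were set to 3 over the group. Exon lengths and mm9 positions are from GENCODE vM1, and promoters from RefSeq. From each list, up to 4 called genes of the smallest adjusted p and at least 1 CPM on average could be named, plus genes without a read; for the likeness to each tested gene, the 3 highest correlations of log2 CPM (prior count 2) among genes of average log2 CPM at least 2. Alternatives were DESeq2 1.42.0, RLE scaling, no filter, a prior count of 2, fits on the 4 libraries compared, a replicate block and leaving out each library. The scripts were tested on simulated data.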

Additional observations from a re-analysis of the deposited data

Results flagged for a closer look

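For 4 of the 8 genes, the response to TGFb in place of Repsox differed between the genotypes by the interaction term of the fit across all genes. Of all tested genes, 28.5% were called positive and 22.6% negative, so nothing is read from the count. Fgf8 had no read in WT and could not be called, and Mixl1, Gsc and Evx1 were not tested. The difference between responses, K36M minus WT on the log2 scale, was 8.68 for T, 6.84 for Sp5, 4.42 for Eomes and 2.22 for Axin2. With a prior count of 2, the value was 6.65 for T and 5.77 for Sp5. T and Sp5 had responses of opposite sign in the genotypes, while Eomes and Axin2 were lower with TGFb in WT and did not pass the threshold in K36M. These genes were named with results of the same libraries known, so the values stand as a description. Groups of 2 libraries were too small to look for a library far from the others.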

How the results depend on the processing

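The number of genes called in each of the 5 comparisons stayed within 1.5 times under every alternative run, at 7165 to 8880 for K36M against WT under Repsox, 10022 to 11662 under TGFb, 8516 to 9970 for TGFb against Repsox in WT, 6006 to 8322 in K36M, and 6935 to 8351 for the difference between responses. Of 317 alternative log2 values of the 8 genes, 313 kept their call, 4 missed the threshold and 0 reversed a called difference. A prior count of 2 leaves the test as it is, so calls under it could not change. Leaving out a library outside a comparison acts on it only through the filter, scaling and shared spread. The 313 therefore include calls that were fixed, or nearly so, in advance. Values not called could change sign, as for Axin2 in K36M against WT under Repsox, which ran from -0.2 to 0.27. All 4 that missed the threshold were in K36M against WT under Repsox. They were Eomes with DESeq2 (-0.73) and without replicate 2 of K36M with Repsox (-0.55), and Sp5 without replicate 1 of WT (-1.38) or of K36M (-1.13). A prior count of 2 moved values of few reads towards 0. The fitted value of Fgf8 for K36M against WT under TGFb, where WT had no read, went from 7.48 to 3.6, and that for TGFb against Repsox in K36M from 3.84 to 2.82. T went from -3.97 to -2.67 for K36M against WT under Repsox, from 4.71 to 3.98 under TGFb, from 6.03 to 4.61 for TGFb against Repsox in K36M and from -2.65 to -2.04 in WT. Sp5 went from 5.31 to 4.45 for K36M against WT under TGFb and from -3.27 to -2.5 for TGFb against Repsox in WT. Counts for the lists, an alternative chosen after seeing the data, were within 1.5 times in 758 of 768 values. With DESeq2, 3 Sp-family genes were called for TGFb against Repsox in K36M in place of 5, 5 primitive endoderm genes in place of 9, and, in WT, 3 neural genes in place of 5. With only the 4 libraries compared, 3 T-box genes were called under TGFb in place of 6. Over all alternatives except the prior count of 2, calls for the difference between responses ran from 2 to 5 T-box, 1 to 3 Sp-family and 1 to 3 neural genes. For TGFb against Repsox in K36M they ran from 3 to 5 Sp-family, 5 to 9 primitive endoderm and 1 to 2 neural genes. The cause was not tested. Depth limits Mixl1, Gsc and Evx1, with 14, 20 and 7 reads in all.

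The labels do not say what a replicate number marks, and deviations of same-numbered libraries correlated between -0.02 and 0.032. With a replicate block, 8880, 11104, 9866, 7669 and 8100 genes were called in the comparisons in the order above, and 3, 5, 4, 3 and 4 of the 8 genes, as without it.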

Other observations

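Some streak-list genes had an order of groups unlike that of T and Sp5. Hhex, a homeobox gene of anterior endoderm, had 15.6 and 18.2 CPM in WT with Repsox, 0.861 and 0.646 CPM in WT with TGFb, 4.08 and 3.3 CPM in K36M with Repsox, and 1.56 and 3.93 CPM in K36M with TGFb. Under Repsox its K36M level was below that of WT (log2 difference -2.18 ± 0.27, edgeR adjusted p = 3.47e-07). Dll1, a Notch ligand of presomitic mesoderm, was higher in K36M under Repsox (2.37 ± 0.26, adjusted p = 6.81e-08), at 11.1 and 12.6 CPM against 2.02 and 2.57 CPM. Pdgfra, a receptor of mesoderm, primitive endoderm and fibroblasts, was lower in K36M under Repsox (-2.42 ± 0.15, adjusted p = 3.03e-12).

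The endoderm factor gene Sox17 and the Wnt-responsive homeobox gene Cdx1 were singled out after their values were seen. Sox17 had 0.27 and 0.302 CPM in WT with Repsox, no read in WT with TGFb, 4.48 and 2.57 CPM in K36M with Repsox, and 1.33 and 0.786 CPM in K36M with TGFb. Its highest group was K36M with Repsox, in which T had 1 read in each library. Cdx1 had 0.472 and 0.831 CPM, 0.258 and 0.0718 CPM, 3.49 and 4.91 CPM, and 14.2 and 12.6 CPM in the same order of groups. Unlike T and Sp5, Cdx1 was higher in K36M than in WT with either agent, by 2.68 ± 0.38 under Repsox (adjusted p = 3.51e-06) and by 6.33 ± 0.44 under TGFb (adjusted p = 1.93e-11). The latter was 7.36 without replicate 1 and 5.65 without replicate 2 of WT with TGFb.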
